A study of Mus musculus with 6 samples.

Results

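The genes described here are 30 neighbours on distal mouse chromosome 15, from Acvrl1 to Calcoco1, a stretch that holds the type II keratin genes and ends beside the Hoxc homeobox cluster. They were chosen by name, as rows whose annotated symbol is exactly that of a listed gene, with the Hoxc genes left out. Of the 30, 29 had a probe set of their own among the 18193 named genes on the array. Soat2, which encodes a sterol esterifying enzyme of intestine and liver, was not analysed here. Of 6 other genes that make or cleave sterol and neutral lipid esters, 1 was called higher in the knockout and 2 lower. The higher call was Lipa, which encodes a lipase that cleaves such esters, at 0.57 in log2 (limma adjusted p = 0.00119). Dgat2, among the lower calls, was lost in every fit that left out an array except that without knockout replicate 2 (limma adjusted p = 0.0555 to 0.135). Dgat1, the other lower call, was lost with probe sets averaged (log2 change -0.11). The list was drawn up with the knockout against wild-type difference in view, so the members' own differences are given as a description, without a test and as support for nothing.

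RNA came from R1 mouse embryonic stem cells of (129X1 x 129S1)F1 background, either Sirt1-/- (knockout, 3 arrays) or Sirt1+/+ (wild type, 3 arrays). The product of Sirt1 is a deacetylase that uses NAD. Both genotypes were grown without a named feeder layer, on 0.1% gelatin, in medium with serum and 100 IU/ml of LIF (leukaemia inhibitory factor), a cytokine that sustains self-renewal. Each array was made from 100 ng of total RNA. The labels name 1 source of cells per genotype and give no clone number, so genotype and source cannot be told apart. They do not say whether the 3 samples came from separate cultures, so each p-value rests on the spread among 3 arrays per genotype that may be technical, and the number of arrays limits the precision.

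Levels are log2 RMA values, so a difference of 1 is a doubling of signal, and differences are knockout minus wild type throughout. Sirt1 itself read 8.02, 7.94 and 8.20 in knockout arrays and 10.12, 10.13 and 10.23 in wild-type arrays, which is -2.11 in log2 (SE 0.08) with a limma p, adjusted by Benjamini-Hochberg over all genes, of 3.98e-05. The sources used here do not place its probe set relative to the deletion. Embryonic stem cell identity was plain in both genotypes: all 10 pluripotency markers listed lay above the median gene, and their array means were 11.47 to 11.51 in knockout and 11.78 to 11.81 in wild type, with 6 of the 10 called lower in the knockout. Array medians over all probe sets were 4.51 to 4.56 in knockout and 4.53 to 4.57 in wild type.

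As background, keratins are the intermediate filament proteins of epithelia and work as obligate pairs of a type I and a type II chain. All mouse type II keratin genes sit together on chromosome 15, and Krt18 is the type I gene that lies beside them, next to its partner Krt8. Krt8 and Krt18 form the filaments of simple epithelia and are the earliest keratins of the mouse embryo, in trophectoderm and in extraembryonic endoderm. The genes on the distal side of the keratins are unrelated to them in function: they encode translation, chaperone, nuclear pore and cell division proteins, enzymes, and transcription factors such as Sp1.

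The sequence before the transcription start is shown for 4 members, picked with their values known. Krt7 and Krt8 belong to the same gene family and differed in opposite directions, and Krt18 pairs with Krt8. Sp1 encodes a factor that binds the GC box GGGCGG. Each is the 250 bases before the start in RefSeq on GRCm38.p6, 5′ to 3′ on the gene's own strand, with matches on either strand in capitals to the GC box GGGCGG, to the box CCAAT, to the TATA motif TATAAA or to the AP-1 motif TGANTCA. Krt7 lies on the + strand at chr15:101412153-101412402, Krt8 on the - strand at chr15:102004343-102004592, Krt18 on the + strand at chr15:102027966-102028215 and Sp1 on the + strand at chr15:102406066-102406315.
Krt7: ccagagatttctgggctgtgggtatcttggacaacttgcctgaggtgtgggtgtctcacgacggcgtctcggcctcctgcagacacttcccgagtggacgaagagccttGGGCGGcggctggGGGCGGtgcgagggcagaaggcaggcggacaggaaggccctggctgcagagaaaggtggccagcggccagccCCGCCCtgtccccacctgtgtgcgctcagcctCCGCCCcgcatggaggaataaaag
Krt8: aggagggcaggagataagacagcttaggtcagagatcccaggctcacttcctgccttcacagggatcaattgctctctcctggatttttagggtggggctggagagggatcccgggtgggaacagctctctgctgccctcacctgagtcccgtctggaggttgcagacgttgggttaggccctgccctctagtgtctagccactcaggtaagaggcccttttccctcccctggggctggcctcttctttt
Krt18: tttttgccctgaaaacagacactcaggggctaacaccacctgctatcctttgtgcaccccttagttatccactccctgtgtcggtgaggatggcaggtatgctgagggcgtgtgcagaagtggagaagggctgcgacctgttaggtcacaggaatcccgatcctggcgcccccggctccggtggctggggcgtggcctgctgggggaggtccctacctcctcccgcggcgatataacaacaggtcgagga
Sp1: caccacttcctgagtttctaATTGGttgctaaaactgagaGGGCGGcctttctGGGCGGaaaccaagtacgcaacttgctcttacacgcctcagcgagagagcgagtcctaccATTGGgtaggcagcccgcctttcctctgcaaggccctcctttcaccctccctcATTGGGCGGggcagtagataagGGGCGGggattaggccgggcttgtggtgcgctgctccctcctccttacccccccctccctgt
The Krt7 window held 4 GC boxes and 16 CpG dinucleotides, the Krt8 window 0 GC boxes and 3 CpG, and the Krt18 window 0 GC boxes and 12 CpG. The Sp1 window held 4 GC boxes and 3 CCAAT matches, all on the reverse strand as ATTGG, and 1 of these overlaps a GC box in the run ATTGGGCGG. Over the list, GC boxes lay in 7 of 13 windows of members called higher and in 7 of 11 others. Nothing is read from the contrast among these 4 windows.

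Of the 29 measured members, 14 were called higher in the knockout, 4 lower and 11 neither (limma, adjusted p under 0.05 over all genes). Over all 18193 genes, 12.5% were called higher and 17.5% lower. The 3 knockout arrays lay wholly above the 3 wild-type arrays for 17 members and wholly below for 4, where the shares over all genes were 19.1% and 24.7%, or 43.8% in either direction. Because the list was drawn up on this contrast, nothing is read from these shares. The median log2 change of the measured members was 0.14, against -0.01 over all genes, and it was 0.28 without wild-type replicate 2. The label of the list calls the stretch raised, but the values it was drawn up on cannot test that. Most of the members called higher lie between Krt8 and Prr13, a run marked out after its values were seen. Outside that run Nr4a1 was the only member called higher.

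**Figure D1:**
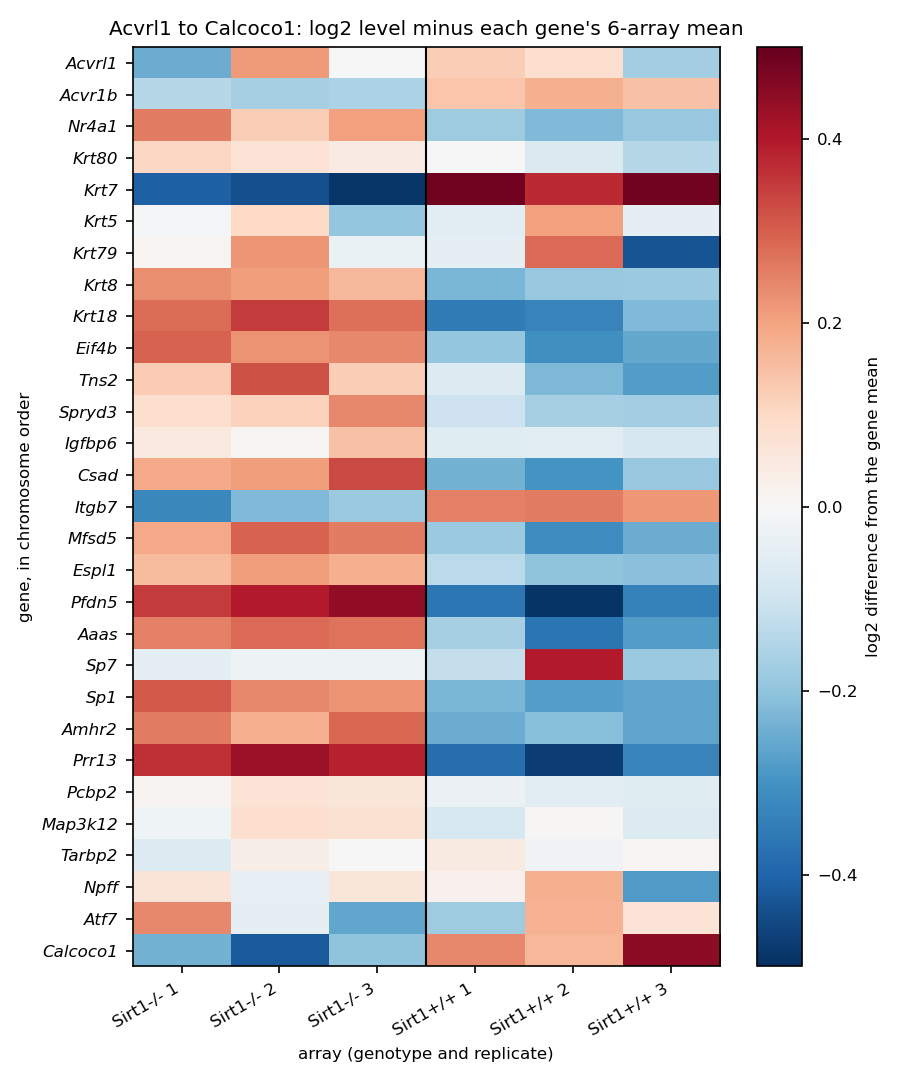
Each row is a measured member in chromosome order and each column an array, 3 Sirt1-/- on the left and 3 Sirt1+/+ on the right; colour is the log2 level minus that gene's mean over the 6 arrays. From Krt8 to Prr13 most rows are above their mean in all 3 Sirt1-/- arrays, and Krt7, Itgb7 and Calcoco1 show the opposite.

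The replicates of a genotype were close for these genes. The median within-group SD of a member was 0.06, against 0.10 for all genes, and the members were brighter than most genes, with a median level of 8.32 against 5.83. Taking each gene's distance from its 6-array mean, the median over the members was 0.10, 0.12 and 0.12 in the knockout arrays and -0.10, -0.07 and -0.19 in the wild-type arrays. Over all genes that median lay between -0.02 and 0.02 in every array. Between 20 and 22 members were above their own mean in each knockout array, and between 6 and 11 in each wild-type array. The same count was not made over all genes. Because the list was drawn up on these arrays, nothing is read from the direction of these values.

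Of the 19 members brighter than the median gene, 13 were called higher and 3 lower, with a median log2 change of 0.40. Among all 9096 genes that bright, 21.5% were called higher and 26.5% lower, with a median of -0.02. Level and position overlap here: of the 6 brighter members outside the run from Krt8 to Prr13, Nr4a1 was called higher, Acvr1b and Krt7 lower, and Pcbp2, Map3k12 and Tarbp2 neither. Of the 10 dimmer members, Spryd3 was called higher and Calcoco1 lower, and the median log2 change was 0.02. Among all genes of any level, 12.5% were called higher and 17.5% lower. The brighter genes raise these shares, so they are not matched in level to the dimmer members. The dim members included Acvrl1, Krt79 and Atf7 at mean levels of 3.71, 3.43 and 3.53, close to the lower quartile of the arrays (3.16 to 3.24), where background limits what a difference can show.

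**Figure D2:**
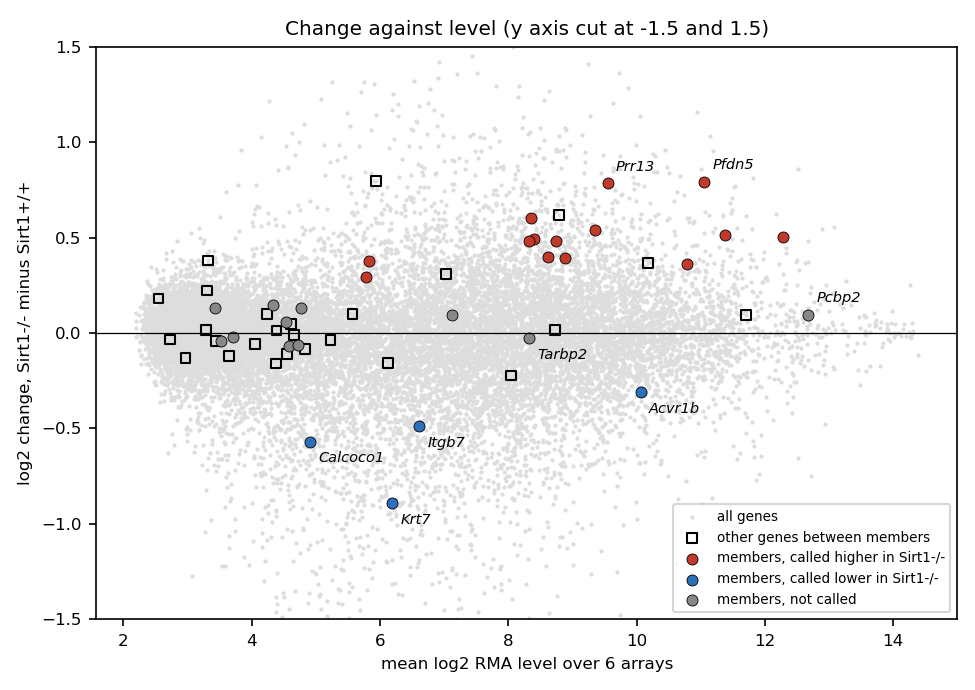
The x axis is the mean log2 level over 6 arrays and the y axis the log2 change, Sirt1-/- minus Sirt1+/+; circles are members, open squares the other genes of the stretch and grey dots all genes. Members called higher lie mostly between levels of 8 and 12, and the members not called lie mostly below 5.

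Among the 6 keratin members, Krt8 and Krt18 were higher, Krt7 was lower and Krt80, Krt5 and Krt79 were not called. Over all genes 12.5% were called higher and 17.5% lower. Krt8, the type II chain of simple epithelia, read 8.85, 8.82 and 8.78 in knockout and 8.39, 8.43 and 8.43 in wild type, a log2 change of 0.40 (SE 0.05). Krt18, its type I partner, read 8.63, 8.70 and 8.62 in knockout and 8.0, 8.01 and 8.13 in wild type, a log2 change of 0.60 (SE 0.06) or 1.52-fold. For both genes every knockout array lay above every wild-type array. The other probe sets of Krt8 gave 0.36 and 0.32 and were also called higher. Both of these are of the _x_at kind, whose probes can match related transcripts.

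Krt7, a type II keratin of ducts and trophoblast, went the other way. It read 5.78, 5.75 and 5.71 in knockout and 6.68, 6.57 and 6.68 in wild type, a log2 change of -0.89 (SE 0.05) or 1.85-fold, the largest difference of any member in either direction. All 3 knockout arrays were lower than all 3 wild-type arrays. Krt80, expressed in differentiating epithelia, read 4.44, 4.40 and 4.38 in knockout and 4.33, 4.26 and 4.19 in wild type (log2 change 0.14, SE 0.05). These groups did not overlap, but the gene did not pass the threshold. Krt5, the basal keratin of stratified epithelia, and Krt79 had overlapping arrays and log2 changes of -0.07 (SE 0.10) and 0.13 (SE 0.18).

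Most keratin genes outside the list were not called. None of the 18 other type II keratins measured was called (limma, adjusted p under 0.05), and their levels ran from 2.55 to 6.13, so most were near background. Krt86, the most different of them, had a log2 change of 0.38 (limma adjusted p = 0.0635), and was called in 4 of the other settings, among them without knockout replicate 3. Krt73 came next, with overlapping arrays and a log2 change of 0.22 (limma adjusted p = 0.177). Of 24 type I keratins, all on chromosome 11, 1 was called higher and 1 lower. Krt19, the small type I keratin that pairs with Krt7 and Krt8 in simple epithelia, read 6.55 ± 0.05 in knockout and 7.45 ± 0.05 in wild type (SD, n = 3 each; log2 change -0.90; limma adjusted p = 0.000111). Krt10, a suprabasal keratin of skin, was higher by 0.69 (limma adjusted p = 0.00173).

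Of 22 measured genes that attach keratins or seal epithelial junctions, 2 were called higher and 11 lower, with a median log2 change of -0.24. The tight junction protein gene Ocln fell by 1.85 in log2 (limma adjusted p = 0.000448). Dsp, which anchors keratin filaments to desmosomes, fell by 1.13 (limma adjusted p = 9.05e-05). In these bulk samples fewer cells of a type and less RNA per cell cannot be told apart. Marker lists of epithelial and extraembryonic cells, and of feeder fibroblasts, moved as follows beside Krt8 and Krt18. Of 10 trophectoderm markers 0 were called higher in limma and 1 lower (Krt19), and 6 of the 10 lay below the median gene. Their array means were 5.23 to 5.39 in knockout and 5.33 to 5.46 in wild type, and their median log2 change was 0.04. Of 11 extraembryonic endoderm markers 0 were called higher and 6 lower, with array means of 5.47 to 5.57 in knockout and 6.19 to 6.22 in wild type. Of 10 markers of surface or stratified epithelium 1 was called higher and 5 lower, with array means of 5.19 to 5.21 in knockout and 5.60 to 5.72 in wild type. Feeder fibroblast markers gave 2 higher and 2 lower of 11, with array means of 4.63 to 4.74 in knockout and 4.65 to 4.72 in wild type. The part of these markers in the keratin differences was not tested.

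**Figure D3:**
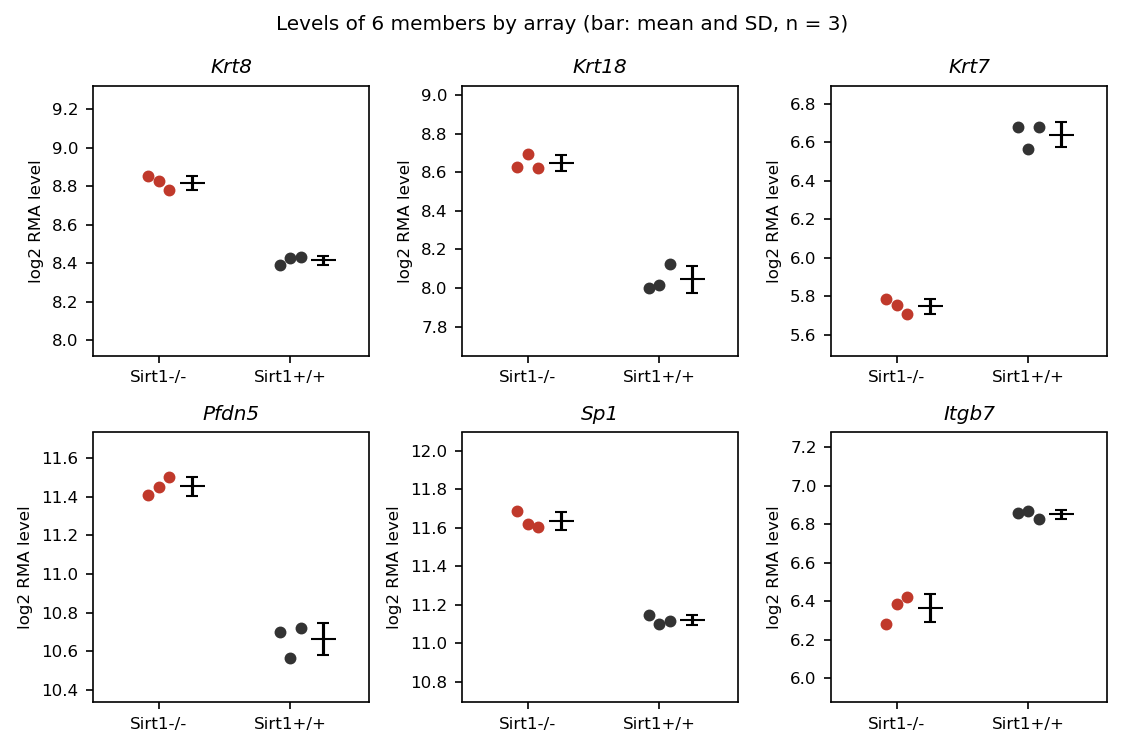
Log2 RMA level of 6 members in each array, Sirt1-/- on the left and Sirt1+/+ on the right of each panel; points are arrays and bars the mean and SD (n = 3), and all panels span 1.4 log2 units. Krt8, Krt18, Pfdn5 and Sp1 are higher in every Sirt1-/- array, and Krt7 and Itgb7 are lower in every one.

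The 5 members that handle RNA and proteins gave 3 higher and 0 lower calls, where 12.5% of all genes were called higher and 17.5% lower. Pfdn5, a subunit of prefoldin, the chaperone that hands unfolded actin and tubulin to the chaperonin, had the highest log2 change of all members. It read 11.41, 11.45 and 11.50 in knockout and 10.70, 10.57 and 10.72 in wild type, a log2 change of 0.79 (SE 0.06) or 1.73-fold. Its brightest probe set is of the _s_at kind, which can match several transcripts, and the next brightest, of the plain kind, gave 0.63. The other prefoldin subunits, encoded on other chromosomes, were not called higher: of 5 measured, 0 passed the limma threshold upward, and Pfdn6 fell by 0.33 (limma adjusted p = 0.00197).

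Eif4b, which stimulates the helicase that prepares messenger RNA for ribosome binding, read 12.58, 12.50 and 12.52 in knockout and 12.09, 11.97 and 12.03 in wild type (log2 change 0.50, SE 0.05), with no overlap. Its 3 probe sets gave 0.50, 0.55 and 0.63. Of 10 other initiation factor genes of the eIF4 group, 3 were called higher and 2 lower, with a median log2 change of 0.01. Eif4g3 fell by 0.81 (limma adjusted p = 0.000294). The higher call of Eif4g2 was lost without knockout replicate 2 or 3 and without wild-type replicate 1 or 2 (limma adjusted p = 0.106 to 0.132). It was also lost with probe sets averaged (log2 change 0.13). Aaas, a nuclear pore component mutated in human triple A syndrome, read 9.60, 9.63 and 9.62 in knockout and 9.18, 8.99 and 9.07 in wild type (log2 change 0.54, SE 0.06). Of other nucleoporins, 7 were called higher and 6 lower of 25, with a median of -0.00. Ndc1, the membrane protein that holds the Aaas product at the pore, fell by 0.55 (limma adjusted p = 0.000374).

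Pcbp2 and Tarbp2, the remaining members of this kind, lie past Prr13 and were not called. Pcbp2, which binds C-rich RNA, read 12.69, 12.74 and 12.74 in knockout and 12.65, 12.62 and 12.61 in wild type (log2 change 0.10, SE 0.04). Of 4 genes of related C-rich RNA binders 1 was called higher and 1 lower, and Hnrnpk fell by 0.37 (limma adjusted p = 0.00121). Pcbp2 is the brightest of all members, and its dimmer probe sets gave 0.30 and 0.65 and were called higher. Tarbp2, a partner of Dicer, had overlapping arrays, at 8.26, 8.36 and 8.33 in knockout and 8.37, 8.31 and 8.34 in wild type (log2 change -0.02, SE 0.05). The 95% interval of its difference ran from -0.14 to 0.09, below the 0.29 of Spryd3, the smallest difference among members called higher. Of 12 other genes of microRNA processing and loading, 1 was called higher and 4 lower, and the exporter Xpo5 fell by 0.77 (limma adjusted p = 0.000273). Dgcr8, among the lower calls, was lost with probe sets averaged (log2 change -0.14).

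Of the 5 transcription factor and cofactor genes, Nr4a1 and Sp1 were higher, Calcoco1 was lower and Sp7 and Atf7 were not called. The shares over all genes were 12.5% higher and 17.5% lower. Sp1, a broadly expressed activator of GC-rich promoters, read 11.69, 11.62 and 11.60 in knockout and 11.15, 11.10 and 11.12 in wild type (log2 change 0.51, SE 0.05). The groups were far apart, and the other probe sets of Sp1 gave larger differences, 0.73 and 0.92. Nr4a1, an orphan nuclear receptor induced by growth signals, read 9.14, 9.01 and 9.09 in knockout and 8.70, 8.66 and 8.69 in wild type (log2 change 0.39, SE 0.05). None of 7 other genes of the Nr4a and Sp families was called in limma, and their log2 changes lay between -0.11 and 0.09. Sp7, the osteoblast factor beside Sp1, had overlapping arrays with means of 4.69 ± 0.01 in knockout and 4.76 ± 0.32 in wild type (SD, n = 3 each; log2 change -0.06, SE 0.15).

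Calcoco1, a coactivator of nuclear receptors and the last member before the Hoxc genes, read 4.68, 4.49 and 4.71 in knockout and 5.15, 5.08 and 5.36 in wild type (log2 change -0.57, SE 0.09). The arrays did not overlap, but the level is low and its other, dimmer probe set gave 0.05 and was not called. Atf7, a cyclic AMP response element binding factor, was near background with overlapping arrays (log2 change -0.04, SE 0.15). Of 12 genes of the JNK cascade and ATF partners, 3 were called higher and 0 lower in limma, led by Fos at 0.76 (limma adjusted p = 0.000239).

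The 8 receptor and signalling members gave 2 higher and 2 lower calls, where 12.5% of all genes were called higher and 17.5% lower. Acvr1b, the type I receptor ALK4 for activin and Nodal, read 9.92, 9.90 and 9.91 in knockout and 10.20, 10.24 and 10.21 in wild type (log2 change -0.31, SE 0.04). The groups did not overlap, though with all its probe sets averaged the difference was -0.16 and not called. Acvrl1, the BMP9 receptor ALK1 of endothelium and the neighbour of Acvr1b, was near background with overlapping arrays (log2 change -0.02, SE 0.13). Among 13 other receptors and coreceptors of the TGF-beta family, 1 was called higher and 4 lower. Acvr2b was higher by 0.75, while Acvr1 fell by 0.68 and the Nodal coreceptor Tdgf1 fell by 0.65 (limma adjusted p of 0.00361 or less). Of 9 targets of activin and ALK1 signalling, 1 was called higher and 6 lower, with a median log2 change of -0.73, and Lefty1 fell by 1.82 (limma adjusted p = 2.62e-05).

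Amhr2, the receptor for anti-Mullerian hormone, read 8.58, 8.50 and 8.60 in knockout and 8.07, 8.11 and 8.06 in wild type (log2 change 0.48, SE 0.05). The value comes from an _x_at probe set, and the plain probe set of the gene was dimmer, at a mean of 6.40, and gave 0.25. Itgb7, the beta chain of leukocyte integrins, lay inside the run from Krt8 to Prr13 and was lower. It read 6.28, 6.39 and 6.42 in knockout and 6.86, 6.87 and 6.83 in wild type (log2 change -0.49, SE 0.05), with no overlap. Tns2, a tensin of focal adhesions, read 5.96, 6.15 and 5.95 in knockout and 5.76, 5.61 and 5.55 in wild type (log2 change 0.38, SE 0.08). It was called higher, but not without wild-type replicate 2, where the log2 change was 0.36.

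Igfbp6, which binds insulin-like growth factors, was not called although its arrays did not overlap, at 4.81, 4.77 and 4.91 in knockout and 4.70, 4.71 and 4.68 in wild type (log2 change 0.13, SE 0.05). Among 10 other genes of that system, 0 were called higher in limma and 4 lower, led by Igfbp4 at -1.72 (limma adjusted p = 6.23e-05). Map3k12, the neuronal stress kinase DLK, and Npff, a neuropeptide precursor, had overlapping arrays and log2 changes of 0.09 (SE 0.05) and 0.06 (SE 0.12). The 3 dimmer probe sets of Map3k12 gave 0.25, 0.34 and 0.15 and were not called, and the average over its probe sets was 0.21.

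The 5 measured members of the last kind, from cell division, metabolism and less known functions, were all called higher, where 12.5% of all genes were. All 5 lie between Krt8 and Prr13, so nothing is read from their shared kind. Espl1, the separase that cuts cohesin at anaphase, read 10.95, 11.00 and 10.97 in knockout and 10.66, 10.59 and 10.58 in wild type (log2 change 0.36, SE 0.05). Of 18 regulators and subunits of cohesin, 2 were called higher and 6 lower, with a median of -0.07, and Smc1a was higher by 0.37 (limma adjusted p = 0.00170). The other higher call, Pds5b, was lost without knockout replicate 2 (limma adjusted p = 0.0564). Csad, which makes the taurine precursor hypotaurine from cysteine sulfinate, read 8.94, 8.96 and 9.08 in knockout and 8.51, 8.45 and 8.56 in wild type (log2 change 0.48, SE 0.06). Cdo1, the enzyme of the step before, fell by 0.85 (limma adjusted p = 0.000642), and of the 6 other genes of taurine synthesis and transport 1 was called higher and 2 lower. The higher call, Ado, was lost without knockout replicate 1 or 2 and without wild-type replicate 1 or 2 (limma adjusted p = 0.0536 to 0.0746), and with probe sets averaged (log2 change 0.05). Slc6a6, the lower call besides Cdo1, was also lost with probe sets averaged (log2 change -0.04).

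Prr13, a regulator of thrombospondin expression in human cells, read 9.91, 9.98 and 9.93 in knockout and 9.17, 9.08 and 9.22 in wild type (log2 change 0.79, SE 0.05) and matched Pfdn5 in size. Mfsd5, a molybdate transporter in human cells, read 8.58, 8.69 and 8.65 in knockout and 8.21, 8.09 and 8.15 in wild type (log2 change 0.49, SE 0.06). Both had arrays wholly apart. Spryd3 was dimmer and differed less, at 5.87, 5.91 and 6.03 in knockout and 5.69, 5.62 and 5.62 in wild type (log2 change 0.29, SE 0.06).

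**Figure D4:**
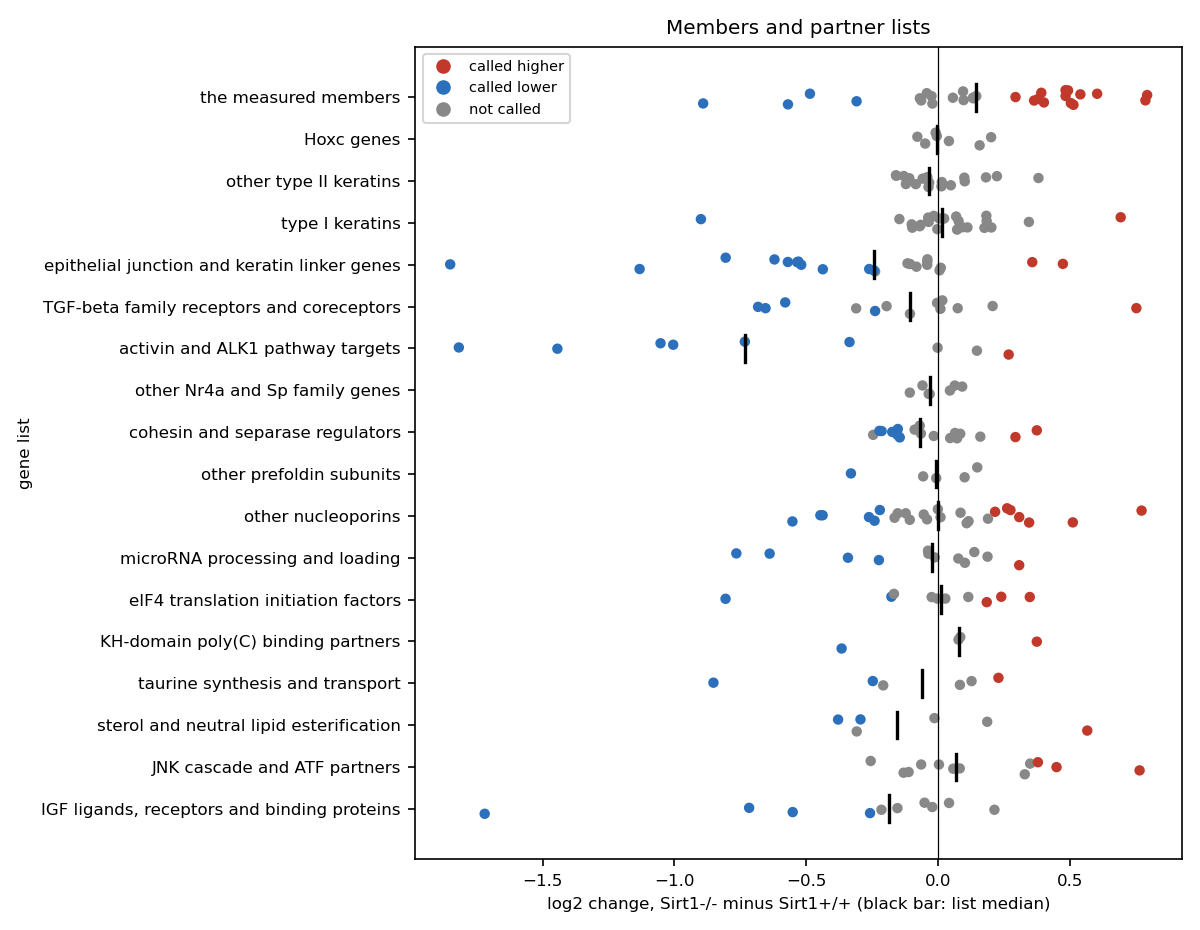
Each dot is a gene and the x axis its log2 change, Sirt1-/- minus Sirt1+/+; the top row holds the measured members, the rows under it the partner lists, and black bars are medians. The members reach from -0.89 to 0.79, the Hoxc, other type II keratin and other Nr4a and Sp rows hold only genes that were not called, and the row of activin and ALK1 targets has the lowest median, -0.73.

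The calls are described here in the order of the genes along the chromosome. From Krt8 to Prr13 there are 20 measured genes in a row, members and others, and 16 of them were called higher and 1 lower, with a median log2 change of 0.48. Over all genes 12.5% were called higher and 17.5% lower, and 21.5% and 26.5% of those brighter than the median gene, as 17 of these 20 are. This run was marked out after its values were seen, and 16 of its 20 genes are members, so it has no test. Its counts beside those before and after it follow from where its ends were set. The exceptions within it were Itgb7, which was lower, and Igfbp6, Sp7 and Myg1, which were not called. Before Krt8, the 28 measured genes of the stretch gave 2 higher and 3 lower, with a median of -0.03. After Prr13 the 7 measured genes gave 0 higher and 1 lower in limma (Calcoco1), with a median of 0.06, and their highest log2 change was 0.10. That holds for the brightest probe set of each gene: with probe sets averaged, Pcbp2 had a log2 change of 0.35 and was called higher, and Map3k12 had 0.21.

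Between the members lie 26 measured genes that are not on the list, 18 of them keratins. Of the 26, 4 were called higher and 1 lower, with a median of 0.01 (-0.04 to 0.03 with each array left out), and all 5 were among the 8 that are not keratins. Zfp740, a zinc finger gene between Csad and Itgb7, read 9.13, 9.06 and 9.11 in knockout and 8.54, 8.35 and 8.56 in wild type (log2 change 0.62, SE 0.07; limma adjusted p = 0.00105). Grasp, a scaffold protein gene beside Nr4a1, was higher by 0.37 (limma adjusted p = 0.00116), and the predicted gene Gm9918 by 0.80 (limma adjusted p = 0.00920). Rarg, a retinoic acid receptor gene in the same run, was higher by 0.31 (limma adjusted p = 0.0474). That call was lost in 5 of the 6 fits that left out an array, all except the fit without wild-type replicate 2, with adjusted p values of 0.0683 to 0.127. Atg101, an autophagy gene named after its value was seen as the only lower call, had a log2 change of -0.22 (limma adjusted p = 0.0130; 0.0518 without wild-type replicate 1).

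**Figure D5:**
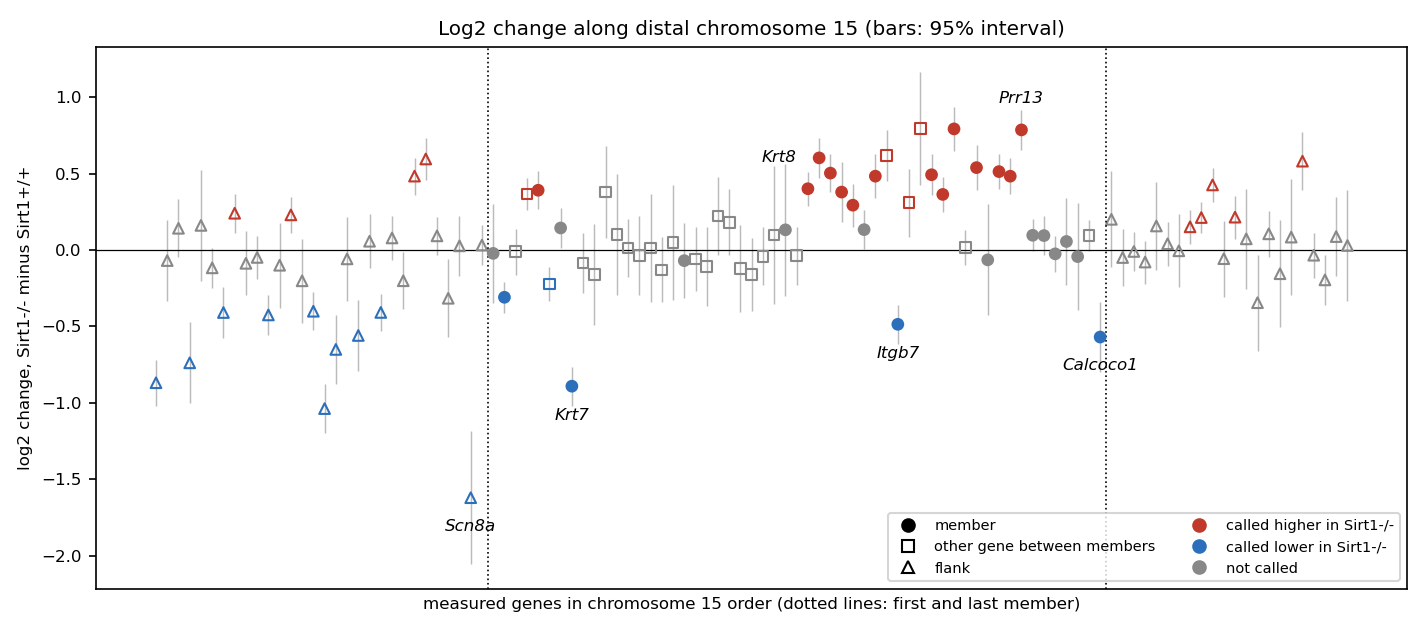
Log2 change, Sirt1-/- minus Sirt1+/+, of measured genes in chromosome 15 order, with 95% intervals; filled circles are members, open squares other genes between them and triangles the flanks, and dotted lines mark the first and last member. From Krt8 to Prr13 the points lie mostly between 0.29 and 0.80, while the keratin genes before Krt8 lie between -0.16 and 0.38 apart from Krt7 at -0.89.

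Outside the stretch the picture differed on each side. Of the 30 nearest measured genes before Acvrl1, 4 were called higher and 10 lower, with a median log2 change of -0.09, or -0.14 without wild-type replicate 3. The sodium channel gene Scn8a, close to Acvrl1, fell by 1.62, Mettl7a1 fell by 1.04, and Bcdin3d at the far end fell by 0.87 (limma adjusted p of 0.00102 or less). Only 22 measured genes follow Calcoco1 up to the chromosome end, among them 7 Hoxc genes, none of which was called in limma, with log2 changes of -0.08 to 0.20. Of the 22, 5 were called higher and 0 lower in limma, with a median of 0.06. With single arrays left out, 3 were called higher, or 4 without wild-type replicate 3, and 1 was called lower without knockout replicate 1 or wild-type replicate 3. The median was 0.10 without wild-type replicate 1, and 0.0107 to 0.0838 without each of the others. The splicing factor gene Hnrnpa1 was higher by 0.43 and Pde1b by 0.58 (limma adjusted p = 0.000886 and 0.00226). Zfp385a had a log2 change of -0.34 and was not called (limma adjusted p = 0.0993). It was called lower without wild-type replicate 3 and with the replicate number as a block. The 669 measured genes of chromosome 15 outside the stretch gave 82 higher and 111 lower calls, or 28.8% called in all beside 30% of all genes, with a median log2 change of -0.01.

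The members that depart from the common shift were taken as those 0.5 or more from the members' median log2 change of 0.14, as a description. Pfdn5 and Prr13 lay above it, and Krt7, Itgb7 and Calcoco1 below. Measured from the 0.40 of the brighter members instead, Pfdn5 and Prr13 no longer stood out and Acvr1b joined Krt7, Itgb7 and Calcoco1. Of these lower members only Itgb7 lies within the run from Krt8 to Prr13.

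Motif matches in the members' promoters are given as a description, searched on both strands. RefSeq gave a window for 24 of the 30 members, and where it gave more than 1 the first was used. GGGCGG was found in 14 of the 24 (58.3%), in 7 of the 13 members called higher and 7 of the 11 others, against 50% of the windows of 14367 measured genes and 32.9% of all 27025 windows. CCAAT was found in 7 of the 24 (29.2%), 5 of them called higher, against 35.7% of measured genes and 34.5% of all windows. TATAAA was found in 1 window, that of Igfbp6 (4.17%, against 9.0% of measured genes and 13% of all windows), and TGANTCA in 0 of 24 (against 5.55% and 6.87%). The median GC content was 59.6% in the windows of members called higher, 62.8% in those of the other members and 57.6% over measured genes. Of the 24 members with a window, 9 of 14 on the + strand and 4 of 10 on the - strand were called higher, beside 12.5% of all genes. Prr13, also called higher, had no window. Level differed too: 13 of the 14 on the + strand were brighter than the median gene, and 5 of the 10 on the - strand. Nothing is read from the split by strand.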

How the data were processed

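The authors deposited log2 expression values per probe set, and the submitters' processing notes name RMA and Partek 6.5. The sources used here give no settings, and the log2 scale was taken from the values. RMA normalizes arrays to each other, so values are relative within the series. Of 45101 probe sets, 64 controls, 932 with several gene symbols and 9160 with none were left out. Each of 18193 genes was read on its brightest probe set by the mean of 6 arrays, with no filter. Gene order came from RefSeq on GRCm38.p6, which matched 18031 genes by Entrez identifier. The 2 groups were fitted with lmFit and eBayes of limma 3.58.1 (R 4.3.3), two-sided, and p was adjusted by Benjamini-Hochberg over the 18193 genes, with a threshold of 0.05. The fit was also run on simulated data with independent arrays and few changed genes. That setting differs from these data, so the run does not bear on the calls here.

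The members, the 17 partner lists, the 5 marker lists and the naming rule were chosen with earlier results of these data known. The rule named Sirt1, all members, the 6 most different other genes of the stretch, 3 per flank of at most 30 genes, and up to 3 called genes per list. Any gene named outside the rule was picked with its value known. Deviations of like-numbered arrays correlated at 0.05, -0.09 and 0.20 across genes, and the labels do not pair them. Alternatives changed the normalization, the dim filter, the probe set rule, the variance model, the threshold, the arrays used and the replicate block.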

Additional observations from a re-analysis of the deposited data

How the results depend on the processing

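Counts and medians below are knockout relative to wild type, and the cause of each change was not tested. At an adjusted p under 0.01, limma called 3356 genes (1347 higher, 2009 lower), 0 lower genes between the members, 2 higher genes in the flank before Acvrl1 and 2 in the flank after Calcoco1. With the dimmest 40% of genes removed, the median log2 change was 0.39 for the members, 0.0937 for the genes between them, -0.20 for the flank before and 0.15 for the flank after. With all probe sets of a gene averaged it was 0.29 for the members and -0.0214 for the flank before, 2 genes of the flank after were called higher, and 3 members departed from the common shift; at a distance of 0.3 or more 13 did. With every member probe set counted on its own, 27 of 51 were called higher, with a median of 0.29. Quantile normalization repeated gave 1 lower call in the flank after Calcoco1. The fit with the replicate number as a block called 4700 genes (1908 higher, 2792 lower), 14 members higher and 4 lower, and 3 higher and 1 lower in the flank after; like-numbered arrays are not known to be pairs.

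Leaving out each array in turn gave 4104 to 4753 called genes (1656 to 2009 higher, 2448 to 2759 lower), 13 to 14 members called higher and 4 lower, and a members' median of 0.13 to 0.28. The genes between the members gave 3 to 5 higher and a median of -0.04 to 0.03. The flank before gave 3 to 4 higher, 10 to 11 lower and a median of -0.145 to -0.0653; the flank after gave 3 to 4 higher, 0 to 1 lower and a median of 0.0107 to 0.101. Acvr1b was not called with probe sets averaged (-0.16), Krt80 was called with quantile normalization repeated (0.15), and Pcbp2 with probe sets averaged (0.35) or with an intensity trend and robust variance. An alternative chosen after seeing the data, the brightest probe set not of the _x_at or _s_at kind, gave 14 higher and 4 lower members. Levels near background limit what the dim members can show.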
